A study of Mus musculus with 12 samples.

Results

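The genes described here are 10, of 12394 with a probe set of their own on the array, that belong to the inhibitory synapse, where the transmitters GABA and glycine act: Gad1, Gad2, Slc32a1, Slc6a9, Glra1, Glrb, Gphn, Gabra3, Gabrb1 and Gabrb2. Every probe set whose platform annotation gives 1 of these symbols and no other was taken, a probe set being the group of array probes that reads a transcript. This gave 14 of the 22690 probe sets on the array. Gad1, Slc32a1, Slc6a9 and Gphn had 2 probe sets each, and the other 6 genes had 1.

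Spinal cord RNA was measured in 12 mice of 13 days of age, on 1 array per mouse, in 3 groups of 4. All mice came from line 4299 on the FVB background, which models a severe form of spinal muscular atrophy (SMA), where motor neurons are lost because too little survival motor neuron protein is made. All groups carried the human SMN2 transgene and the SmnΔ7 transgene on both alleles (SMN2+/+;SmnΔ7+/+). SMA ceftriaxone mice lacked the mouse gene (mSmn -/-) and were injected into the peritoneum each day, starting at day 5, with 200 mg/kg of ceftriaxone, a beta-lactam antibiotic. SMA vehicle mice had the same genotype and were given vehicle. The mice labelled wildtype kept 1 mouse Smn allele (mSmn+/−), were given vehicle, and so are transgenic carriers rather than mice without these alleles. One field of the labels calls both vehicle groups untreated. The labels speak both of whole cords and of lumbar segments, and they give no sex. The mice were perfused with fixative, and the RNA was amplified before hybridisation.

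Inhibitory interneurons of the spinal cord make GABA from glutamate with the enzymes encoded by Gad1 and Gad2, and load GABA and glycine into synaptic vesicles with the transporter encoded by Slc32a1. The transporter encoded by Slc6a9, found mainly in astrocytes, takes glycine back up from the cleft. On the receiving neuron, glycine opens a chloride channel built from alpha subunits such as that of Glra1 and the beta subunit of Glrb, and the scaffold protein gephyrin (Gphn) holds this receptor and many GABA-A receptors under the release site. Gabra3, Gabrb1 and Gabrb2 encode subunits of GABA-A receptors, the chloride channels opened by GABA. In the cord these synapses shape motor neuron firing and gate sensory input, and the make-up of both receptors shifts as the cord matures.

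Promoter sequences are shown for Gabra3, which had the largest fold change among the 10 genes, for Gphn, whose probe sets both passed the test, and for Glrb, the gene that was lower in SMA vehicle cords. They come from RefSeq (GRCm38.p6), which held an entry for 9 of the 10 genes, and run from 250 bases before to 50 bases after the annotated start, 5′ to 3′ on the gene's strand. Capitals mark GC boxes (GGGCGG, or CCGCCC on the other strand) and CCAAT boxes (CCAAT, or ATTGG on the other strand). The Gabra3 window, 1 of 2 listed, is chrX:72656870-72657169 (minus strand), the Gphn window chr12:78226405-78226704 (plus strand) and the Glrb window chr3:80913611-80913910 (minus strand).
Gabra3: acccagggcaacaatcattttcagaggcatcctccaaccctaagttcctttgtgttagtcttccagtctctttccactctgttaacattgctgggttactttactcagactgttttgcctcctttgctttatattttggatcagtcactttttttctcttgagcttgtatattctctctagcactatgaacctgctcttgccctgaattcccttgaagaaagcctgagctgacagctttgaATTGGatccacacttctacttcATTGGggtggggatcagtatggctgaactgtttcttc
Gphn: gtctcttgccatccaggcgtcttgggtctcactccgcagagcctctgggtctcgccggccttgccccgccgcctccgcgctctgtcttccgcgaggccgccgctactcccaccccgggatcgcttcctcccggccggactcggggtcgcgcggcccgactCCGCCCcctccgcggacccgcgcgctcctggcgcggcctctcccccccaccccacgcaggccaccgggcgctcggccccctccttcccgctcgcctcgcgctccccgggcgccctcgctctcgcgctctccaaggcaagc
Glrb: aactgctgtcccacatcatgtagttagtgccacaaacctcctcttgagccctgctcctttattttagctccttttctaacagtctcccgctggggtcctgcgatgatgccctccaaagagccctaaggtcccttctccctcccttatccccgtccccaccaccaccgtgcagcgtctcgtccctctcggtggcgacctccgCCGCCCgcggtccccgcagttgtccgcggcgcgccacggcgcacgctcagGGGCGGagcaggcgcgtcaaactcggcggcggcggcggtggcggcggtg

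The Gabra3 window had 2 CCAAT boxes and 0 GC boxes, the Gphn window 1 GC box and 0 CCAAT boxes, and the Glrb window 2 GC boxes and 0 CCAAT boxes. Among 32851 mouse promoters of the same length, 35.7% held a GC box and 37.4% a CCAAT box, so neither letter pattern is rare. The share of G and C was 43.0% for Gabra3, 77.0% for Gphn and 65.7% for Glrb, against a median of 52.7% over all promoters. These matches describe letters in the windows and no factor was measured.

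Smn1, the targeted mouse gene, followed the labels: its signal averaged 7.28 ± 5.85 in SMA ceftriaxone cords, 4.22 ± 0.991 in SMA vehicle cords and 313 ± 70.1 in wildtype cords (SD, n = 4 each). Wildtype array 2 stood apart. Its summed signal of 9 thymus and T cell genes was 37246.3, against 73.6 to 521 on the other 11 arrays, and its summed signal of 14 pan-neuronal genes was 62849.2, against 76531.5 to 92926.3. The neuronal marker Snap25 read 8685.9 to 12900.8 over the 12 arrays, which fits nervous tissue. Xist, which marks cells with 2 X chromosomes, was above a signal of 1000 on 4 of 4 SMA ceftriaxone arrays, 2 of 4 SMA vehicle arrays and 1 of 4 wildtype arrays. Treatment and this signal are therefore partly confounded.

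The inhibitory synapse genes were themselves dim on wildtype array 2. Over the 10 genes, each by its brightest probe set, the summed signal there was 13916.1, against 19246.4 to 20593.6 on the other 11 arrays. The median probe set among the 13 kept for testing (defined below) reached 71% of the mean of wildtype arrays 1, 3 and 4, against 94.3% for all tested probe sets. Gad1, Slc6a9 and Slc32a1 were at 62.4% to 69%, Glra1 at 108% and Gabrb2 at 116%. Values without that array stand beside the differences from wildtype given for the 10 genes. Values of other genes are from all 12 arrays unless stated.

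**Figure D1:**
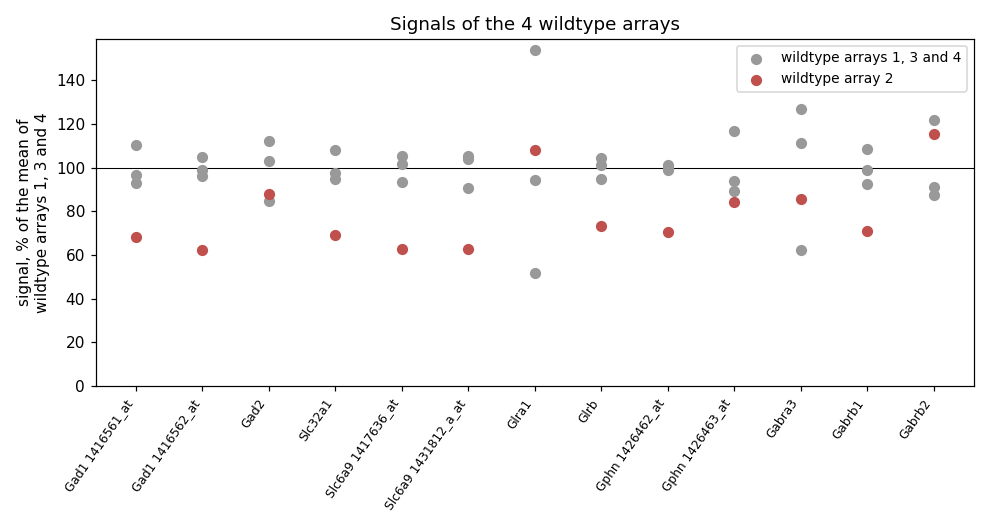
Signal of each wildtype array (dots) as a percent of the mean of wildtype arrays 1, 3 and 4 (line at 100), for the 13 tested probe sets of the inhibitory synapse genes. Array 2 (red) lies below the other 3 arrays for 9 of 13 probe sets, and at 108% for Glra1 and 116% for Gabrb2.

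In SMA vehicle cords, against wildtype cords, the genes for GABA synthesis (Gad1, Gad2), the scaffold Gphn and the GABA-A receptor subunits Gabra3, Gabrb1 and Gabrb2 were higher, and the glycine receptor subunit Glrb was lower. Gabra3 changed most, by 1.24 ± 0.20 on the log2 scale (SE, 2.37-fold), and Glrb fell by 0.37 on that scale. Slc32a1, Slc6a9 and Glra1 did not pass the test with all 12 arrays. Of the 14 probe sets, 13 lay above the filter on dim probe sets, and 9 of the 13 passed limma's moderated test at an adjusted p below 0.05, 8 of them higher and 1 lower. Over all 13575 probe sets tested, 47.2% passed, 24.9% higher and 22.3% lower, so calls were frequent everywhere and a call alone sets no gene apart. The median log2 fold change was 0.34 over the 13 probe sets and 0.01 over all tested, or 0.22 and 0.03 without wildtype array 2. For 7 of the 13, SMA vehicle and wildtype arrays were fully separate, against 42.5% of all tested probe sets.

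Without wildtype array 2, 11 of the 13 probe sets passed, 8 higher and 3 lower, against 58.5% of all tested. The probe sets gained were both of Slc6a9, in the lower direction. Without SMA vehicle array 4, 5 of the 13 passed, against 40.5% of all tested. Arrays of high Xist signal alone (2 SMA vehicle, 1 wildtype) leave the wildtype spread unmeasured, so only log2 differences are given. They were 0.15 and 0.28 for Gad1, 0.78 for Gad2, 0.19 for Gphn 1426462_at, 0.24 for Gabrb1 and 0.68 for Gabrb2. From arrays of low Xist signal (2 SMA vehicle arrays, with wildtype arrays 1, 2 and 4) 1 passed, Gabra3, against 16% of all tested. In bulk tissue, fewer cells of a type and less RNA per cell cannot be told apart, and this holds for every gene below.

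**Figure D2:**
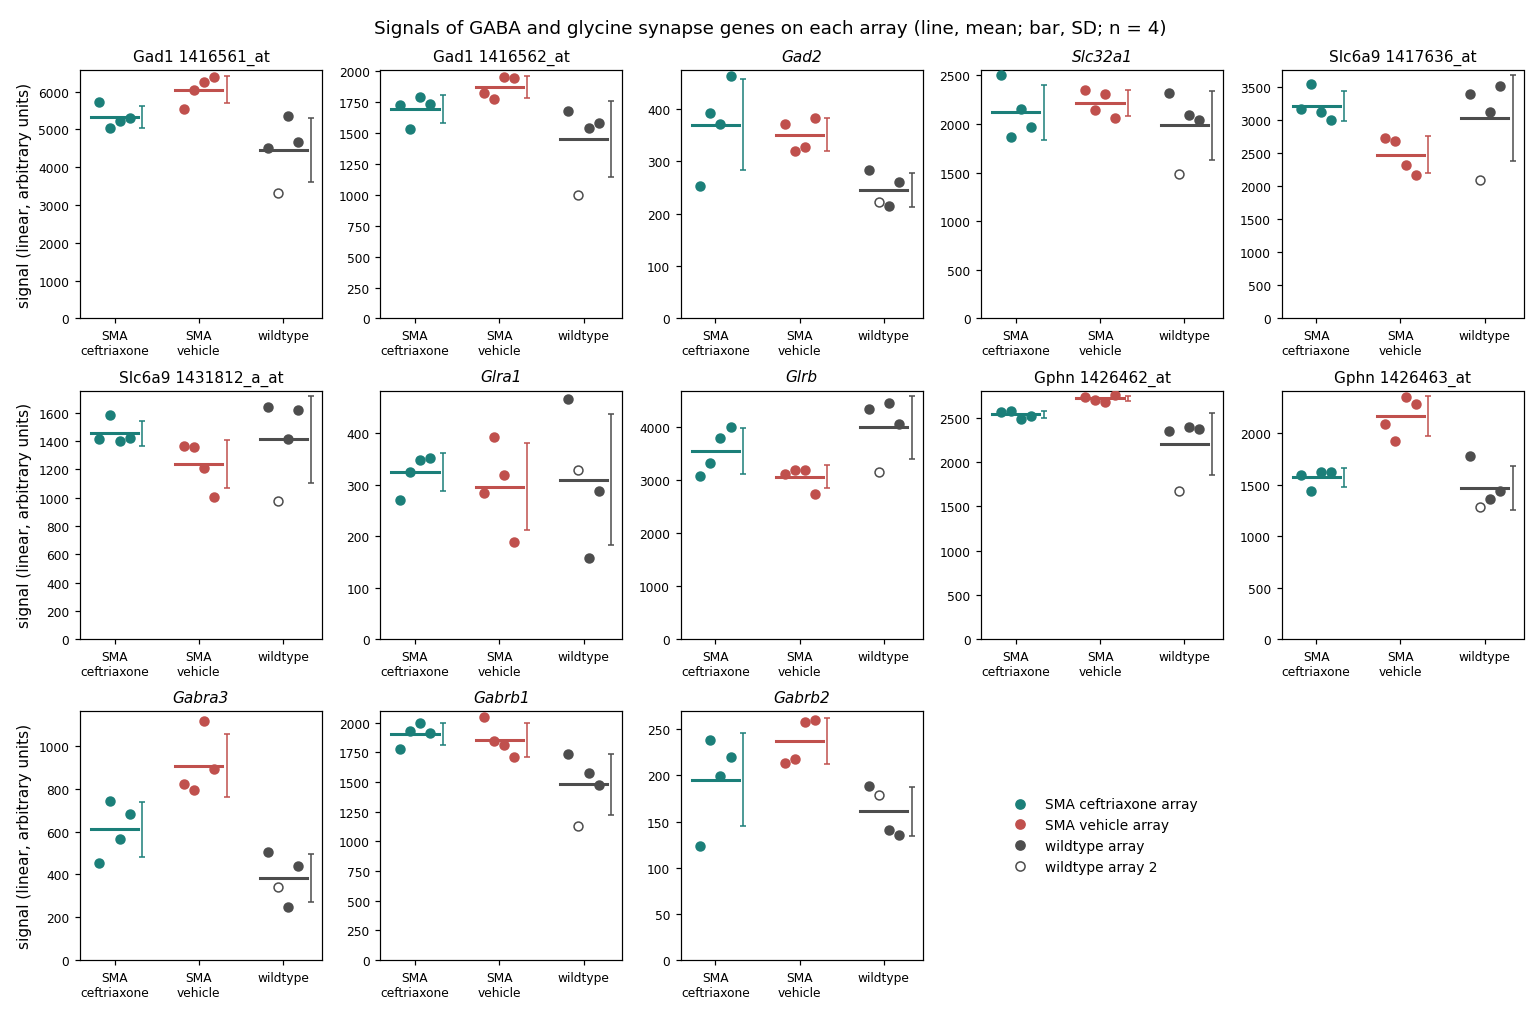
Signal (linear, arbitrary units) of each tested probe set of the inhibitory synapse genes on each array (dots, with wildtype array 2 open), by group, with the mean (line) and SD (bar, n = 4). Gabra3 signals in SMA vehicle cords run from 793.6 to 1118.3, above every SMA ceftriaxone and wildtype array, while Slc32a1 and Glra1 overlap in all 3 groups.

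Gad1 encodes GAD67, the cytosolic enzyme that makes most GABA in neurons. Its brighter probe set, 1416561_at, read 5723.2, 5041.4, 5223.7 and 5304.9 in SMA ceftriaxone cords, 5546.8, 6041.2, 6254 and 6381.3 in SMA vehicle cords, and 4506.3, 3311.4, 5350.3 and 4665.9 in wildtype cords. Every SMA vehicle array lay above every wildtype array, and the SMA ceftriaxone arrays overlapped with both. Against wildtype, SMA vehicle was higher by 0.46 ± 0.12 (log2, SE; limma adjusted p = 0.00554), and by 0.32 ± 0.07 without wildtype array 2 (adjusted p = 0.00164). The other Gad1 probe set, 1416562_at, read 1731.2, 1535.1, 1791.8 and 1736 in SMA ceftriaxone cords, 1822, 1780.1, 1957.3 and 1946.7 in SMA vehicle cords, and 1683, 1001.5, 1544.4 and 1584.4 in wildtype cords. The order of the groups was the same, with a difference of 0.39 ± 0.13 between SMA vehicle and wildtype (adjusted p = 0.0272), or 0.22 ± 0.07 without wildtype array 2 (adjusted p = 0.0121). This second call ended without SMA vehicle array 3 or 4 (adjusted p = 0.0661 and 0.0647) and with only the groups compared in the fit (adjusted p = 0.0602).

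Gad2 encodes GAD65, the form anchored at synaptic vesicles. Its signals were 253.1, 393.2, 372.1 and 462.8 in SMA ceftriaxone cords, 372, 319.7, 328 and 383.7 in SMA vehicle cords, and 283.1, 222, 214 and 260.3 in wildtype cords. The SMA vehicle and wildtype arrays were separate, and SMA ceftriaxone array 1 lay among the wildtype arrays while the other 3 did not. Against wildtype, SMA vehicle was higher by 0.50 ± 0.16 (adjusted p = 0.0202), and by 0.45 ± 0.17 without wildtype array 2 (adjusted p = 0.0316). The call ended without wildtype array 3 (adjusted p = 0.0587) or SMA vehicle array 4 (adjusted p = 0.0579).

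Slc32a1, the vesicular transporter that both inhibitory transmitters share, showed no called difference in any comparison. Its signals were 2507.8, 1861.9, 2151 and 1970.3 in SMA ceftriaxone cords, 2352.1, 2140.7, 2313.8 and 2065.6 in SMA vehicle cords, and 2324.3, 1486.5, 2095.1 and 2042.4 in wildtype cords. The 3 groups overlapped. The 95% interval for SMA vehicle against wildtype ran from -0.10 to 0.45, and from -0.16 to 0.25 without wildtype array 2. Its other probe set, 1456457_at, was the 1 below the filter, with signals of 2.4 to 6.7 in SMA ceftriaxone cords, 7.3 to 34.5 in SMA vehicle cords and 4.2 to 9.1 in wildtype cords, too dim to read a change from.

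Slc6a9 encodes GlyT1, the glial glycine transporter. Probe set 1417636_at read 3174.9, 3552.3, 3133 and 3009.7 in SMA ceftriaxone cords, 2739.9, 2692.8, 2327.3 and 2166.7 in SMA vehicle cords, and 3404.4, 2095.7, 3129.9 and 3522 in wildtype cords. SMA vehicle arrays lay below all SMA ceftriaxone arrays and below wildtype arrays 1, 3 and 4, while wildtype array 2 was the dimmest of the 12. With all arrays the difference between SMA vehicle and wildtype was -0.27 ± 0.14 (adjusted p = 0.14), and without wildtype array 2 it was -0.44 ± 0.09 (adjusted p = 0.000879).

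Probe set 1431812_a_at of Slc6a9 read 1411.7, 1585.9, 1402.5 and 1417.1 in SMA ceftriaxone cords, 1364.5, 1359, 1210.3 and 1003.4 in SMA vehicle cords, and 1636.8, 974, 1412.8 and 1616.2 in wildtype cords. It followed the first: -0.17 ± 0.15 with all arrays (adjusted p = 0.368) and -0.34 ± 0.10 without wildtype array 2 (adjusted p = 0.0125). Both also passed with array quality weights (adjusted p = 0.000914 and 0.0152). The Slc6a9 result against wildtype thus rests on how that array is used. The summed signal of 10 astrocyte genes ran from 61887.2 to 69170.5 in SMA ceftriaxone cords, 40106.1 to 48028.6 in SMA vehicle cords and 44470 to 67742.4 in wildtype cords, the lowest of these wildtype values being array 2. By gene, 2 of the 10 rose in SMA vehicle cords against wildtype, 5 fell and 3 did not pass, and with ceftriaxone 7 rose and 0 fell. The 2 that rose were Aldh1l1 (0.55 ± 0.12, adjusted p = 0.0022) and the glutamate transporter gene Slc1a3, whose 3 probe sets were higher by 0.66, 0.83 and 1.07. The largest falls in the same comparison, without wildtype array 2 and by the brightest probe set, were those of S100b (-1.89), Gjb6 (-1.49), Slc1a2 (-1.39), Gfap (-1.19) and Aqp4 (-0.79). The part of astrocyte RNA in the Slc6a9 result was not tested.

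Glra1, the alpha subunit of the adult glycine receptor, did not differ beyond its spread. Its signals were 271.4, 325.9, 349.1 and 352.2 in SMA ceftriaxone cords, 284.6, 393, 318.9 and 189.3 in SMA vehicle cords, and 467.7, 328.9, 157.7 and 287.2 in wildtype cords. The wildtype arrays alone spanned the whole range. The 95% interval for SMA vehicle against wildtype ran from -0.59 to 0.57 on the log2 scale, and from -0.58 to 0.67 without wildtype array 2, wide enough to hold a change in either direction.

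Glrb, the beta subunit that ties the glycine receptor to gephyrin, was lower in SMA vehicle cords. Its signals were 3062.9, 3324.7, 3796.2 and 3986.9 in SMA ceftriaxone cords, 3108, 3190.8, 3183.9 and 2734.4 in SMA vehicle cords, and 4330.4, 3141.9, 4454.7 and 4046.8 in wildtype cords. All SMA vehicle arrays were below wildtype arrays 1, 3 and 4, and wildtype array 2 lay among them. Against wildtype, SMA vehicle was at -0.37 ± 0.11 (adjusted p = 0.0162), and at -0.49 ± 0.09 without wildtype array 2 (adjusted p = 0.000451). The call ended without wildtype array 3 (adjusted p = 0.0528), without SMA vehicle array 4 (adjusted p = 0.0546) and when arrays were centred on their medians (adjusted p = 0.0843).

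Gphn, the scaffold, had its clearest change in probe set 1426463_at. Its signals were 1597.6, 1439.2, 1622.7 and 1627.9 in SMA ceftriaxone cords, 2091.3, 1928.8, 2357.3 and 2286 in SMA vehicle cords, and 1783.6, 1288.9, 1365.8 and 1437.9 in wildtype cords. SMA vehicle arrays were above all 8 others. Against wildtype, SMA vehicle was higher by 0.56 ± 0.10 (1.48-fold, adjusted p = 0.000546), and by 0.50 ± 0.10 without wildtype array 2 (adjusted p = 0.000632). This call was kept whichever single array was left out.

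Probe set 1426462_at of Gphn read 2562.1, 2572.7, 2490.2 and 2522.8 in SMA ceftriaxone cords, 2734.1, 2700.5, 2678.8 and 2751.5 in SMA vehicle cords, and 2349.4, 1677, 2399.3 and 2371.6 in wildtype cords. The 3 groups did not overlap, in the order SMA vehicle, SMA ceftriaxone, wildtype, but the steps were small. Against wildtype, SMA vehicle was higher by 0.32 ± 0.10 (adjusted p = 0.0178), and by 0.19 ± 0.05 without wildtype array 2 (adjusted p = 0.00288). With a covariate for RNA quality (Gapdh signal at the 3 prime end over that at the 5 prime end), the adjusted p was 0.0501. The sizes of the 2 Gphn probe sets differ, and what part of the transcript each reads was not used here.

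Gabra3, the alpha3 subunit of the GABA-A receptor, is more abundant in the immature nervous system and lies on the X chromosome. Its signals were 453.3, 741.9, 565.9 and 683.4 in SMA ceftriaxone cords, 824.5, 793.6, 1118.3 and 894.7 in SMA vehicle cords, and 503.5, 340.8, 247.2 and 441.1 in wildtype cords. Every SMA vehicle array was above every other array, and SMA ceftriaxone array 1 lay among the wildtype arrays. Against wildtype, SMA vehicle was higher by 1.24 ± 0.20 (adjusted p = 0.000268), and by 1.21 ± 0.22 without wildtype array 2 (adjusted p = 0.000419). The call was kept whichever single array was left out.

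Gabrb1 and Gabrb2 encode beta subunits, which GABA-A receptors need for assembly and for binding GABA. Gabrb1 read 1778.7, 1930.2, 1995.7 and 1914.7 in SMA ceftriaxone cords, 2050.2, 1851, 1812.7 and 1709.3 in SMA vehicle cords, and 1734.7, 1132.6, 1579.7 and 1473.6 in wildtype cords. SMA vehicle array 4 lay just below wildtype array 1, so these groups overlapped. SMA vehicle was higher than wildtype by 0.34 ± 0.11 (adjusted p = 0.0245), or by 0.22 ± 0.08 without wildtype array 2 (adjusted p = 0.0265), and the call ended without SMA vehicle array 1 (adjusted p = 0.0719), with only the groups compared (adjusted p = 0.0576) or with the Gapdh ratio as a covariate (adjusted p = 0.0549).

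Gabrb2 read 123.7, 238.7, 199.6 and 219.5 in SMA ceftriaxone cords, 213.7, 217.9, 257.9 and 260.1 in SMA vehicle cords, and 188.8, 179.3, 141.2 and 135.5 in wildtype cords. SMA vehicle and wildtype arrays did not overlap, and SMA ceftriaxone array 1 was the dimmest of the 12. SMA vehicle was higher than wildtype by 0.52 ± 0.18 (adjusted p = 0.0293), or by 0.57 ± 0.19 without wildtype array 2 (adjusted p = 0.0192). This call depended on single arrays: without wildtype array 3 or 4, or SMA vehicle array 3 or 4, the adjusted p was 0.0766, 0.0811, 0.0751 and 0.0768 in that order. With the Gapdh ratio as a covariate it was 0.064.

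With ceftriaxone, 2 probe sets of these genes were lower in SMA cords and 0 were higher. They were the Gphn probe set 1426463_at, at -0.46 ± 0.10 against SMA vehicle (0.729-fold, adjusted p = 0.00376), and Gabra3, at -0.57 ± 0.20 (0.674-fold, adjusted p = 0.0441). The brighter Gphn probe set, 1426462_at, was at -0.10 ± 0.10 and did not pass (adjusted p = 0.468), so the fall of Gphn rests on 1 of its 2 probe sets. Both called probe sets had been above wildtype in SMA vehicle cords, but the 2 comparisons share the SMA vehicle arrays and so are not independent. Over all tested probe sets 35.9% passed in this comparison, 18.3% higher and 17.7% lower, a larger share than the 2 of 13 here. Groups did not overlap for 5 of the 13, against 45.3% of all tested. The median log2 fold change was -0.07 over the 13 and -0.01 over all tested.

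The call of Gphn 1426463_at was kept whichever single array was left out, while the Gabra3 call was not stable. The adjusted p of Gabra3 was 0.0582, 0.0523, 0.132 and 0.0846 without SMA vehicle array 1, 2, 3 and 4, and 0.125, 0.0931 and 0.0545 without SMA ceftriaxone array 1, 3 and 4. With Xist signal as a covariate the Gabra3 difference was -0.38 (adjusted p = 0.205), and among arrays of high Xist signal alone it was -0.50 (adjusted p = 0.0627). The adjusted p was 0.0545 with quantile normalization and 0.0677 with no filter. The part of sex in the Gabra3 difference cannot be told apart from that of treatment beyond these values.

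Slc6a9 lay on the other side. Both of its probe sets were higher on every SMA ceftriaxone array than on any SMA vehicle array, by 0.38 ± 0.14 for 1417636_at (adjusted p = 0.055) and 0.24 ± 0.15 for 1431812_a_at (adjusted p = 0.226). Wildtype array 2 enters this comparison only through the shared estimate of the spread, and without it the adjusted p was 0.002 and 0.0479, with the same differences. Fitted to the 2 SMA groups alone, 1417636_at passed (adjusted p = 0.00422), as it did with quantile normalization (adjusted p = 0.0416). Glrb was higher by 0.21 ± 0.11 (adjusted p = 0.176), or 0.21 ± 0.08 without wildtype array 2 (adjusted p = 0.0505).

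The enzymes and remaining receptor subunits showed no called difference between the SMA groups with all arrays. Gad1 differed by -0.18 ± 0.12 in 1416561_at (adjusted p = 0.236) and passed without wildtype array 2 at the same size (adjusted p = 0.0322). Gad2 differed by 0.05, with a 95% interval from -0.29 to 0.39, and Gabrb1 by 0.04, with an interval from -0.20 to 0.28. For Gabrb2 the difference was -0.29 ± 0.18 (adjusted p = 0.227). Without wildtype array 2, 5 of the 13 passed, against 50.2% of all tested probe sets.

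**Figure D3:**
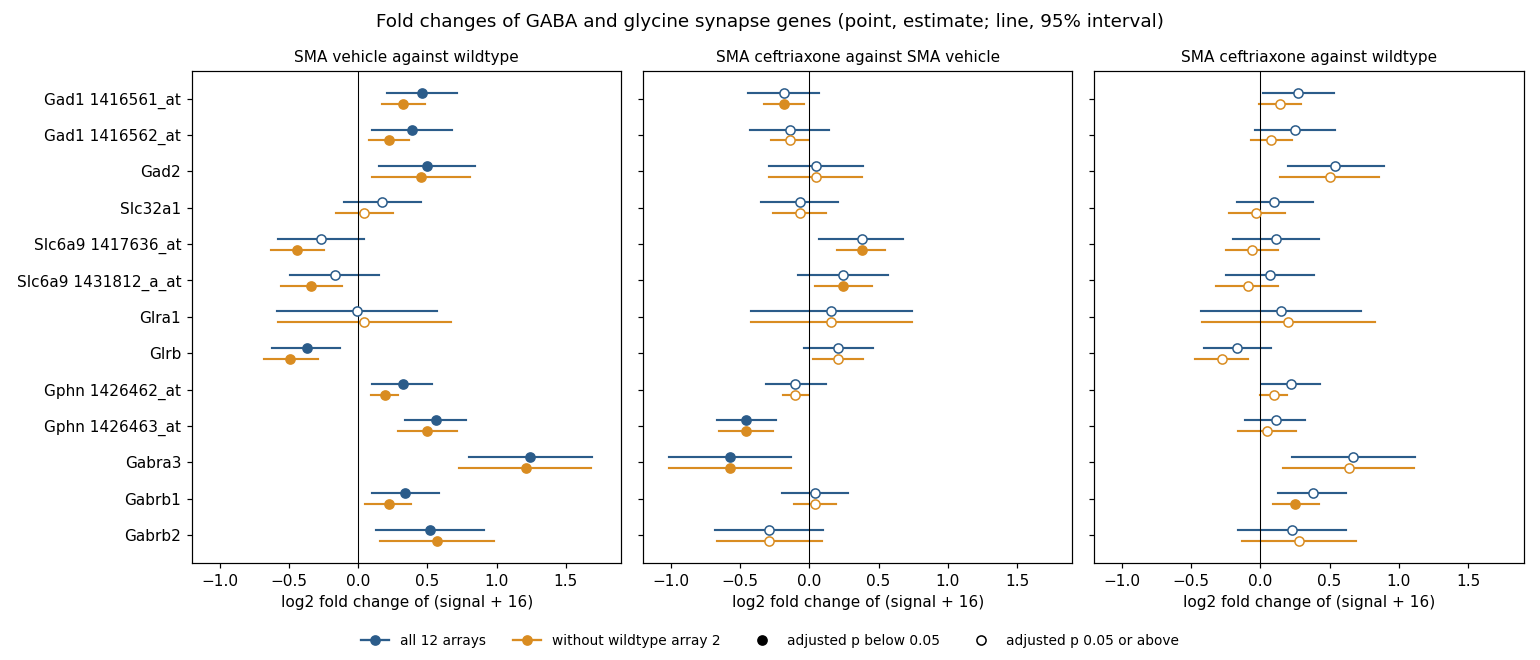
Log2 fold change of (signal + 16) with 95% interval for the 13 tested probe sets in the 3 comparisons, with all 12 arrays (blue) and without wildtype array 2 (orange). Filled points passed the test. In SMA vehicle against wildtype, 8 points lie above 0 and pass with either set of arrays, and both Slc6a9 points pass only where that array is left out.

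Between SMA ceftriaxone and wildtype cords, 0 of the 13 probe sets passed limma's test at an adjusted p below 0.05, and 5 had an unadjusted p below 0.05. Over all tested probe sets 4.21% passed and 20.1% had an unadjusted p below 0.05. The differences of smallest unadjusted p were 0.54 ± 0.16 for Gad2 (adjusted p = 0.074), 0.38 ± 0.11 for Gabrb1 (adjusted p = 0.08) and 0.67 ± 0.20 for Gabra3 (adjusted p = 0.0843). Without wildtype array 2, Gad2 was at 0.50 ± 0.17 (adjusted p = 0.0718) and Gabra3 at 0.64 ± 0.22 (adjusted p = 0.0821). Groups did not overlap for 2 of the 13, Gabrb1 and the Gphn probe set 1426462_at, against 11.6% of all tested. The median log2 fold change was 0.22 over the 13 and 0.01 over all tested, or 0.10 and 0.02 without wildtype array 2, where 4 of the 13 differences were below 0.

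Single arrays changed these outcomes. Gabrb1 passed without wildtype array 1 (0.46, adjusted p = 0.0359) or 2 (0.25, adjusted p = 0.0498), and Gabra3 passed without wildtype array 1 (0.82, adjusted p = 0.0414). Gad2 passed without SMA ceftriaxone array 1 (0.71, adjusted p = 0.0151). With array quality weights Gad2, Gabra3 and Gabrb1 passed (adjusted p = 0.0175, 0.0349 and 0.019). Of the other probe sets, Gphn 1426463_at differed by 0.11 ± 0.10, with a 95% interval from -0.11 to 0.32, or -0.16 to 0.26 without wildtype array 2. Glrb differed by -0.17 ± 0.11, with an interval from -0.41 to 0.08. Without wildtype array 2 it was at -0.28 ± 0.09, with an interval from -0.47 to -0.09 (adjusted p = 0.0648), and every SMA ceftriaxone array then lay below every wildtype array. An adjusted p above the threshold does not show that SMA ceftriaxone cords equal wildtype cords.

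Further genes of the same pathway were read from lists, each gene by its brightest probe set above the filter. Of the other GABA-A receptor subunits, 10 of 15 listed were on the array under a symbol of their own and 2 were above the filter, Gabra2 and Gabrg1, neither called in SMA vehicle against wildtype or with ceftriaxone. In a fit without the filter, 2 of the 10 were higher in SMA vehicle than wildtype, 1 was lower and 7 did not pass. That fit called 31.3% of all probe sets. With ceftriaxone 1 of the 10 was higher and 0 lower, against 22.4% of all called. Gabra2 averaged 830 ± 122 in SMA ceftriaxone cords, 840 ± 193 in SMA vehicle cords and 848 ± 215 in wildtype cords (SD, n = 4 each), and so was level where Gabra3 was not. The dimmer Gabrg1 probe set, 1427227_at, was higher in SMA ceftriaxone than in wildtype cords by 0.30 (adjusted p = 0.0469). No other glycine receptor subunit and no other GABA or glycine transporter was above the filter.

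Gabbr1, a subunit of the slow GABA-B receptor, had 3 probe sets. The brightest averaged 5680 ± 300 in SMA ceftriaxone cords, 6270 ± 319 in SMA vehicle cords and 4490 ± 829 in wildtype cords, higher in SMA vehicle than wildtype by 0.50 ± 0.11 (adjusted p = 0.00282). Probe set 1422051_a_at of Gabbr1 was higher by 0.78 ± 0.13 in SMA vehicle than wildtype (adjusted p = 0.00039) and lower with ceftriaxone by -0.57 ± 0.13 (adjusted p = 0.00571), and the third passed neither test. Abat, which breaks GABA down, was at -0.23 ± 0.12 in SMA vehicle against wildtype (adjusted p = 0.142), and at -0.37 ± 0.07 without wildtype array 2 (adjusted p = 0.000943). With ceftriaxone Abat was at 0.28 ± 0.12 (adjusted p = 0.0902), and passed at the same size without that array (adjusted p = 0.00482).

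Among 8 measured genes of the inhibitory scaffold and of receptor trafficking, 2 rose in SMA vehicle cords against wildtype, 0 fell and 6 did not pass, with a median of -0.03. Nlgn2, the neuroligin of inhibitory synapses, was higher by 0.55 ± 0.17 (adjusted p = 0.0197) and Plcl2, a relative of a GABA-A receptor binding protein, by 0.38 ± 0.11 (adjusted p = 0.0115). Gabarapl1, of the family that carries GABA-A receptors and works in autophagy, was lower in its dimmer probe set (-0.34 ± 0.11, adjusted p = 0.0212) and higher with ceftriaxone in both. Without wildtype array 2 both Gabarapl1 probe sets were lower in SMA vehicle than wildtype. The dimmer was at -0.46 ± 0.08 (adjusted p = 0.000243) and the brighter at -0.39 ± 0.06 (adjusted p = 9.18e-05). By single probe sets, 2 of 12 were higher and 1 lower, or 2 higher and 4 lower without wildtype array 2.

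Of 4 measured glycine metabolism genes, 1 rose and 2 fell in SMA vehicle cords against wildtype. Gldc, the glycine decarboxylase of the cleavage system, averaged 155 ± 48 in SMA ceftriaxone cords, 247 ± 20.2 in SMA vehicle cords and 111 ± 9.14 in wildtype cords (1.05 ± 0.19 for SMA vehicle against wildtype, adjusted p = 0.000547). Its partner Gcsh was lower by -0.27 ± 0.08 (adjusted p = 0.0174), and so was Shmt2, which interconverts serine and glycine, in its brighter probe set (-0.39 ± 0.11, adjusted p = 0.00912), though not in the other (-0.24 ± 0.16, adjusted p = 0.244). Both Shmt2 probe sets were brightest on wildtype array 2. Without it they were at -0.28 ± 0.08 (adjusted p = 0.00742) and -0.06 ± 0.11 (adjusted p = 0.656), and Gcsh was at -0.33 ± 0.07 (adjusted p = 0.00158). With ceftriaxone each of the 3 moved the other way: Gldc by -0.67 (adjusted p = 0.0149), Gcsh by 0.29 (adjusted p = 0.0164) and Shmt2 by 0.34 (adjusted p = 0.0272).

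Of 13 transcription factors that mark inhibitory interneurons, 11 were on the array and 3 lay above the filter on the mean over all arrays. Lhx1 was bright only in SMA vehicle cords and passed the filter through them, so the number that rose among these 3 is no measure of the list. Lhx1 averaged 190 ± 46.6 in SMA ceftriaxone cords, 529 ± 83.3 in SMA vehicle cords and 114 ± 28.2 in wildtype cords, a difference of 2.07 ± 0.19 between SMA vehicle and wildtype (adjusted p = 3.79e-06). Pax8 was higher by 1.06 ± 0.14 (adjusted p = 4.07e-05) and Tal1 by 0.57 ± 0.13 (adjusted p = 0.00338). With ceftriaxone, Lhx1 was at -1.42 ± 0.19 (adjusted p = 0.00015) and Pax8 at -0.97 ± 0.14 (adjusted p = 0.000196), and Tal1 did not pass (adjusted p = 0.12). In a fit without the filter, 5 of the 11 were higher in SMA vehicle than wildtype and 6 did not pass. Lhx5 (1.45, adjusted p = 3.95e-05) and Gbx2 (1.73, adjusted p = 2.02e-05) joined the calls, while Ptf1a (-0.26) and En1 (0.14) did not pass, nor did Gata2, Gata3, Dlx1 and Dlx2. Gata3 read 379 on wildtype array 2, against 23.6, 13.7 and 10.7 on wildtype arrays 1, 3 and 4. In SMA vehicle cords it read 26.2 to 76.9, so its outcome is not read as no change. These factors act early in development. Lhx1, and without the filter Lhx5 and Gbx2, had larger fold changes than Gabra3, while Pax8 and Tal1 had smaller ones. These differences were not tested.

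Of 5 factors of excitatory or mixed interneurons, 4 were on the array and 2 above the filter, and in a fit without it 2 of the 4 were higher and 2 did not pass. Lbx1, a factor of dorsal interneurons of both kinds, rose in SMA vehicle cords against wildtype by 1.32 ± 0.12 in probe set 1422323_a_at (adjusted p = 4.29e-06), and Tlx3, which selects the excitatory fate, by 0.71 ± 0.16 (adjusted p = 0.00265). Of 6 measured genes of excitatory transmission, 4 were higher, 0 lower and 2 not called, with a median of 0.50, and with ceftriaxone 3 of the 6 were lower. Gria2, an AMPA receptor subunit, was higher by 0.95 ± 0.12 in SMA vehicle (adjusted p = 3.33e-05), Gria1 by 0.81 ± 0.13 in its brighter probe set (adjusted p = 0.000275) and Dlg4, the PSD-95 scaffold, by 0.53 ± 0.09 (adjusted p = 0.000304). Inhibitory and excitatory synapse genes were not tested against each other.

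**Figure D4:**
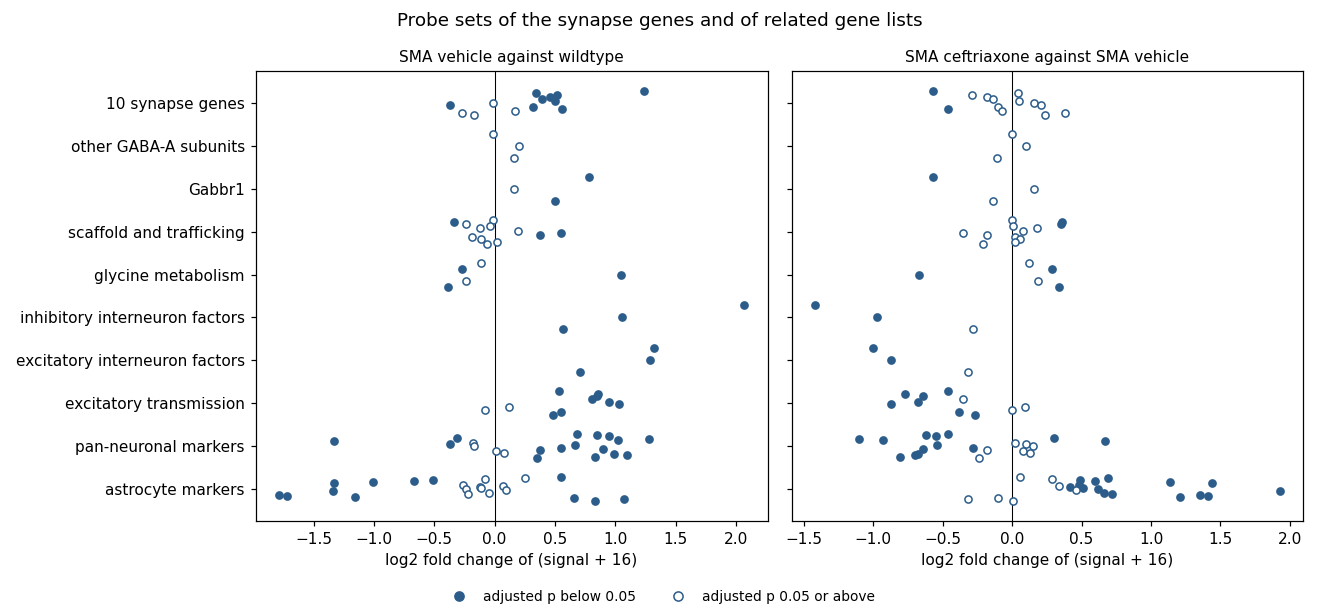
Log2 fold change of (signal + 16) of each tested probe set (dots, filled where the adjusted p is below 0.05) of the 10 synapse genes and of related lists, for SMA vehicle against wildtype (left) and SMA ceftriaxone against SMA vehicle (right). The 3 inhibitory interneuron factors above the filter, of 11 on the array, lie right of 0 in the left panel, at 0.57 to 2.07, while the synapse genes other than Gabra3 lie between -0.37 and 0.56. The highest of these factors, Lhx1, passed the filter through its SMA vehicle arrays.

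Cell type markers moved with the groups as well. Of 14 pan-neuronal genes, 8 rose, 3 fell and 3 did not pass in SMA vehicle cords against wildtype, while their summed signal ran from 76531.5 to 84424.1 in SMA ceftriaxone cords, 80791.1 to 88502.8 in SMA vehicle cords and 62849.2 to 92926.3 in wildtype cords. The lowest wildtype sum was array 2, and wildtype arrays 1, 3 and 4 (90044.1 to 92926.3) lay above every SMA vehicle array. Without wildtype array 2, 13 of their 20 probe sets were higher and 5 lower. All 10 measured oligodendrocyte and myelin genes were lower in SMA vehicle cords and all 10 higher with ceftriaxone. Their summed signal ran from 104611.2 to 114935 in SMA ceftriaxone cords, 26323.2 to 55469.7 in SMA vehicle cords and 89672.3 to 144959.9 in wildtype cords. Since the arrays were scaled to a common trimmed mean, the part of this shift in the signals of the neuronal genes that rose was not tested.

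Microglia, endothelium and skeletal muscle markers moved too. Of 8 microglia genes above the filter, 4 fell, 0 rose and 4 did not pass in SMA vehicle cords against wildtype (median -0.34), and with ceftriaxone 4 rose and 0 fell. Of 7 endothelium genes, 4 fell, 0 rose and 3 did not pass (median -0.48), and with ceftriaxone 4 rose and 0 fell. The summed signal of 9 skeletal muscle genes ran from 332.8 to 886.5 in SMA ceftriaxone cords, 2748.1 to 6430.5 in SMA vehicle cords and 709.9 to 1919.7 in wildtype cords. Only 3 of the 9 lay above the filter, among them Acta1, the actin of skeletal muscle, at 2.63 ± 0.37 in SMA vehicle against wildtype (adjusted p = 9.11e-05) and -3.31 ± 0.37 with ceftriaxone (adjusted p = 6.48e-05). The part of any of these in the synapse gene results was not tested.

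The 10 genes did not move as 1 block across arrays. Over the 11 arrays without wildtype array 2, and by the brightest probe set, Pearson's r of log2 signal was 0.85 for Gphn with Gad1 and 0.86 for Gabra3 with Gabrb2, but -0.91 for Gphn with Glrb and -0.89 for Gad1 with Slc6a9. These values describe arrays that share the 3 group differences, and carry no test. Outside the 10 genes, over all 12 arrays, the gene closest to Gabra3 was Tfr2 (r = 0.968), also without wildtype array 2 (r = 0.965). Gad2 was closest to Agbl3 (r = 0.959 and 0.949), Gabrb1 to Wbp4 (r = 0.972 and 0.933) and Glra1 to Gpcpd1 (r = 0.891 and 0.929), with and without that array in each pair. For the other 6 genes the closest gene changed when wildtype array 2 was left out, as for Gad1, closest to Rtn1 with it (r = 0.98) and to Npm1 without it (r = 0.954).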

How the data were processed

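The authors deposited linear MAS5 intensity for each probe set, per the submitters' processing notes, which name no MAS5 version. The authors had scaled each array: trimmed means were 695.7 to 696.9 on all arrays. No detection calls were used here, and the number of arrays limits precision. Groups and sample numbers come from the labels.

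The offset 16 was added before log2, which shrinks fold changes of dim genes. Control probe sets (64) were left out, and probe sets with a mean log2 value above the 40th percentile were kept (13575). Group means over all 12 arrays were fitted in R 4.3.3 with limma 3.58.1, whose eBayes step used an intensity trend. Adjusted p-values are two-sided, with Benjamini-Hochberg adjustment over all kept probe sets and a threshold of 0.05. Values for Smn1 and the dim Slc32a1 probe set are signals. Probe sets with no symbol (1606) or more than 1 (691) stay unnamed.

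The 10 genes and the lists were chosen with earlier results of these data known. Named besides the 10 are receptor subunits and transporters above the filter, the 3 genes of smallest p in the other lists for SMA vehicle against wildtype, and the gene of highest correlation with each of the 10. Smn1 was named as the check of the labels. Snap25, Xist, Acta1 and the named astrocyte genes fall outside this rule and were named after their values were seen. The same holds for the inhibitory interneuron factors other than Lhx1, Pax8 and Tal1.

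The alternatives tried were an offset of 1 or 64, median centring or quantile normalization, a filter at the 60th percentile or none, array quality weights, eBayes without the trend, only the groups compared, the sample number as a block, Xist or the Gapdh ratio as a covariate, leaving out probe sets that may read several genes, and leaving out each array. Chosen after seeing the data were Xist as a covariate without wildtype array 2, and only arrays of high or low Xist signal.

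On simulated data for SMA vehicle against wildtype, with 13575 probe sets, limma recovered 24 of 67 log2 changes of 0.5, 58 of 67 changes of 1 and 65 of 66 changes of 2, and made 6 false calls. Far fewer probe sets were changed there than the 6401 that passed in the measured data. How often changes of 0.5 were missed in the measured data was not tested.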

Additional observations from a re-analysis of the deposited data

Results flagged for a closer look

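In 66 sets of 4 arrays (probe sets of the inhibitory synapse genes and marker sums, by group), 7 had a highest or lowest array set apart from the other 3 by Dixon's test, where chance sets apart about 1 in 20. Among the genes these were the Slc6a9 probe set 1431812_a_at on SMA ceftriaxone array 2 (1585.9, above the others), the Gphn probe set 1426463_at on SMA ceftriaxone array 2 (1439.2, below the others) and the Gphn probe set 1426462_at on wildtype array 2 (1677, below the others). On wildtype array 2 the summed signal of the 10 synapse genes (13916.1) and of the pan-neuronal genes (62849.2) was low, and that of thymus and T cell genes (37246.3) was high. On wildtype array 1 the summed signal of skeletal muscle genes was high (1919.7) among the wildtype arrays. It was higher still on every SMA vehicle array (2748.1 to 6430.5). The 66 sets share arrays, and the sum of the 10 genes holds probe sets also tested alone. They are therefore not independent, and 7 of 66 cannot be weighed against 1 in 20. The causes of these flags were not tested.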

How the results depend on the processing

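For SMA vehicle against wildtype, the 9 called probe sets of the synapse genes became 1 with only arrays of low Xist signal (16% of all tested), and 5 to 11 when single arrays were left out. Of all probe sets, 6401 were called, 2176 with only low-Xist arrays, and 5502 to 7937 when single arrays were left out. For SMA ceftriaxone against SMA vehicle there were 2 calls, and 35.9% of all tested probe sets were called. Other settings are given with that share in brackets. The 2 became 1 with no filter (22.4%), 6 with array quality weights (53%) and 4 with only the groups compared (49%). They became 1 with the sample number as replicate block (33.7%) and 1 with Xist as a covariate (26.3%). With Xist as a covariate without wildtype array 2 they became 4 (41.9%). Leaving out single arrays gave 1 to 5 (27.5% to 50.2%). For SMA ceftriaxone against wildtype there were 0 calls, and 4.21% of all tested probe sets were called. The 0 became 3 with array quality weights (13.5%) and 1 with Xist as a covariate without wildtype array 2 (6.06%). Leaving out single arrays gave 0 to 2 (1.21% to 10.6%). Of all probe sets in that comparison, 572 were called, 239 with median centring, 1826 with array quality weights and 111 with only the groups compared. The number was 344 with the replicate block, 80 with Xist and 213 with the Gapdh ratio as a covariate, and 164 to 1436 when single arrays were left out. The subsets by Xist hold fewer arrays (1 wildtype and 2 SMA vehicle arrays of high signal), and other causes were not tested. With 1 wildtype array, no counts against wildtype are given for the arrays of high signal.

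Some uncalled differences changed sign. For Glra1, SMA vehicle against wildtype was 0.03 with quantile normalization or median centring, 0.15 with array quality weights, 0.11 with Xist as a covariate (0.10 also without wildtype array 2), 0.52 with only high-Xist arrays, and -0.29 to 0.21 when single arrays were left out. SMA ceftriaxone against SMA vehicle was -0.03 to 0.30 for Glra1 and -0.07 to 0.21 for Gad2 when single arrays were left out, and -0.06 for Gad2 with only high-Xist arrays. SMA ceftriaxone against wildtype was -0.13 to 0.37 for Glra1 when single arrays were left out, and -0.01 for Gad1 1416561_at with only high-Xist arrays. In the order array quality weights, without wildtype array 2, and Xist as a covariate without it, it was -0.03, -0.03 and -0.01 for Slc32a1 1422756_at, -0.03, -0.06 and -0.02 for Slc6a9 1417636_at and -0.06, -0.09 and -0.01 for Slc6a9 1431812_a_at, the last also -0.05 with the Gapdh ratio. When single arrays were left out these 3 ran from -0.03 to 0.19, -0.06 to 0.19 and -0.09 to 0.15.

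Equal sample numbers showed no sign of pairing the mice: deviations of same-numbered arrays correlated at -0.14 to 0.13, and 1 of 12 arrays correlated best with its own number. Such correlations cannot exclude a pairing. With the replicate block, Gabra3 in SMA ceftriaxone against SMA vehicle kept its size (-0.57, adjusted p = 0.0752).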
